A study of Arabidopsis thaliana with 16 samples.

Results

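The aldehyde dehydrogenase (ALDH) family of Arabidopsis thaliana was followed through 8 genes, taken as every gene whose symbol begins with ALDH and a digit and which had an array probe set of its own. They were 8 of the 13355 genes with a probe set naming that gene alone, and 8 of 16 ALDH family genes listed by locus tag; the other family genes were not analysed here. Each of the 8 was read by 1 probe set. All 6 groups of seedlings were in the Col-0 background and were grown for 5 days in continuous white light before a treatment of 24 h. Wild-type (WT) seedlings and seedlings carrying phyA-211, a null allele of the phytochrome A gene, were either kept in white light (45 µmol m-2 s-1; 2 arrays per genotype) or moved under LEDs. Shade had a red to far-red ratio of 0.7, from 13 µmol m-2 s-1 of red, 3.5 of blue and 21 of far-red light (3 arrays per genotype). Strong shade had a ratio of 0.1, from 3 µmol m-2 s-1 of red, 3.5 of blue and 30 of far-red light (3 arrays per genotype). Both shades thus differed from white light in light source and in the amount of light as well as in its colours, and these cannot be told apart. No separate red, blue or far-red amount and no ratio was listed for white light. RNA came from whole seedlings, so more cells of a type and more RNA per cell cannot be told apart either.

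Aldehyde dehydrogenases oxidise aldehydes to carboxylic acids, with NAD+ or NADP+ as the electron acceptor. Plants use them in central metabolism, in amino acid breakdown, in the making of osmoprotectants and phenolic acids, and to remove the reactive aldehydes that arise when lipids are oxidised under stress. Phytochrome A is the photoreceptor for far-red light, and loss of red light relative to far-red is the signal by which a plant perceives shade from its neighbours. The comparisons ask how RNA of each family member differed between lights and whether phyA seedlings differed from WT in the same light.

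Values are log2 of the deposited intensity, an array's brightness for a probe set, which has no absolute unit and is compared here between arrays for 1 gene at a time. Mean intensities of the 8 probe sets over the 16 arrays lay between 44.1 and 915, above the array medians of 13.5 to 15.1. A gene is said to have risen, fallen or been called where limma's adjusted p was under 0.05 after Benjamini-Hochberg adjustment over all 22746 probe sets. Errors after ± are standard errors for differences and SDs for group means. The submitters call the replicates biological and do not say whether they were grown on separate occasions. Arrays of a group correlated at r = 0.979 to 0.995 across probe sets. The third arrays labelled phyA shade and phyA strong shade stood apart. The former had a mean r of 0.986 with the other arrays of its group and 0.993 with phyA strong shade 1 and 2. The latter had 0.981 with its own group and 0.991 with phyA shade 1 and 2. Each was thus nearer to the group of the other shade than to its own, and whether their labels were exchanged was not tested. They are kept as labelled, and the family's phyA differences from white light and its calls between genotypes are given with and without these 2 arrays. No probe set names PHYA alone, so the mutated gene gives no check of the genotype labels. The 3 green-shoot marker genes read, of 5 listed, were bright, with summed intensities of 10300 to 10400 in WT white light, 8330 to 8680 in WT shade and 7480 to 8580 in WT strong shade. In phyA their sums were 9300 to 10400, 5480 to 6470 and 4930 to 5220. The 3 root markers summed to 2170 to 2500, 1370 to 1820 and 1150 to 1350 in WT, and to 2450 to 2520, 920 to 1310 and 779 to 1770 in phyA. Of these, EXPA7 lay below the array median on 11 shaded arrays and EXPA18 on 12, so the root sums in shade rest mostly on PYK10. Green-shoot and root sums were both lower in shade than in white light, and the green-shoot sums were also lower in phyA than in WT in each shade. Of these markers RCA, the Rubisco activase gene, was called between genotypes, at -1.06 ± 0.155 in shade (adjusted p = 0.000517) and -1.49 ± 0.155 in strong shade (adjusted p = 7.2e-06). The part of these markers in the light and genotype results was not tested.

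**Figure D1:**
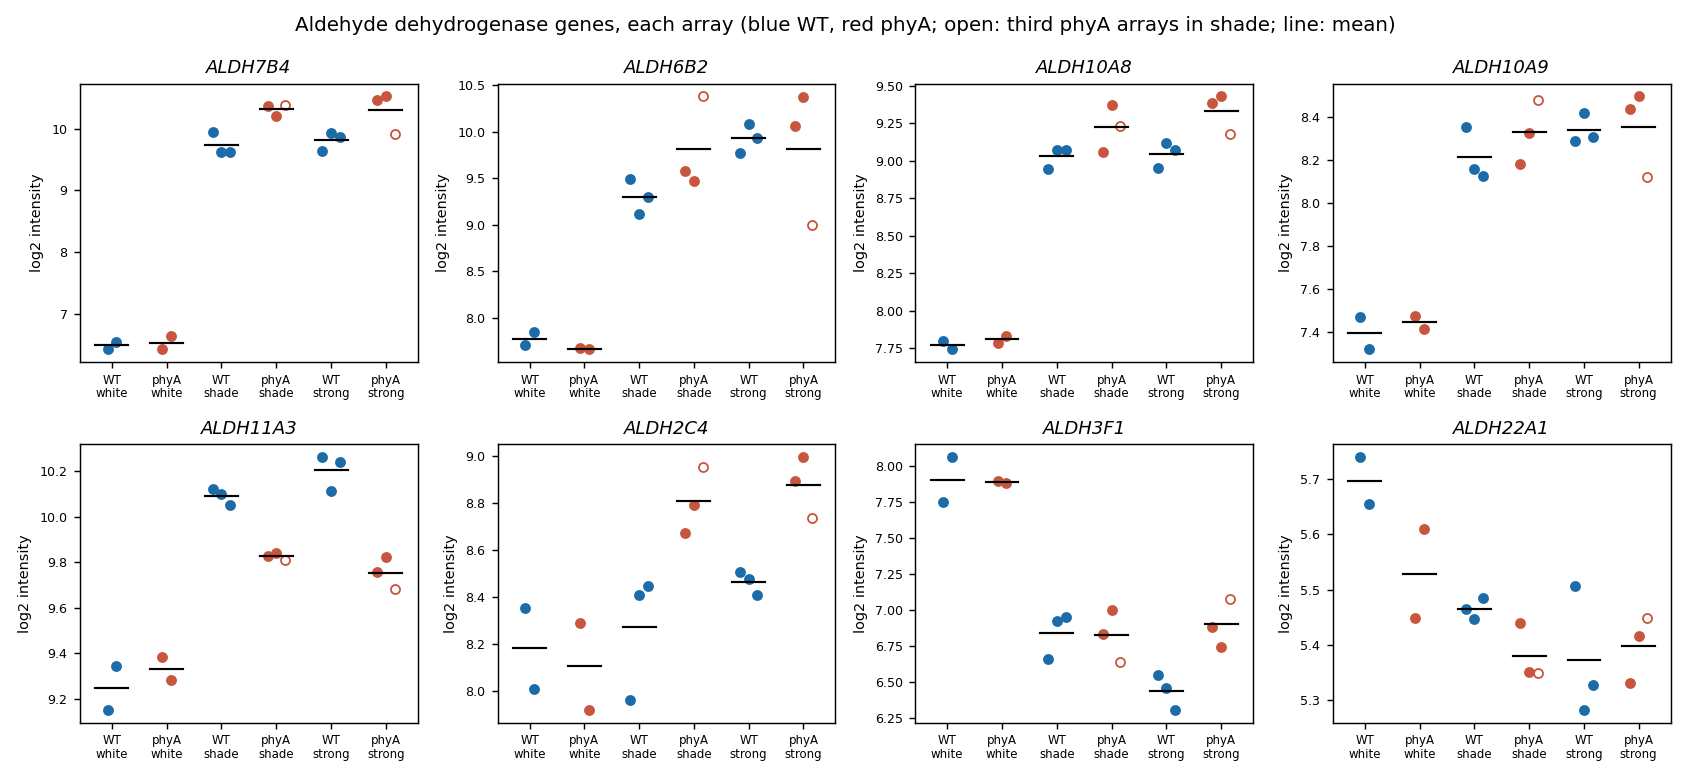
Log2 intensity of the 8 aldehyde dehydrogenase genes (vertical axes, scaled for each gene) in the 6 groups (horizontal axes; white: white light, strong: strong shade). Points are arrays and lines are group means; ALDH7B4 lay near 6.5 in all 4 white-light arrays and at 9.62 or above in the other 12.

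ALDH7B4 showed the widest range. This gene encodes the plant antiquitin, an enzyme thought to remove reactive aldehydes and known for induction by drought and salt. Its log2 intensity was 6.44 and 6.54 in WT white light and 6.43 and 6.63 in phyA white light. In shade it was 9.94, 9.63 and 9.62 in WT and 10.36, 10.21 and 10.38 in phyA. In strong shade it was 9.63, 9.92 and 9.87 in WT and 10.46, 10.53 and 9.92 in phyA. Every shaded array thus lay far above every white-light array, with no overlap. WT rose by 3.24 ± 0.17 in shade (9.46-fold; adjusted p = 1.46e-09) and by 3.32 ± 0.17 in strong shade (adjusted p = 1.08e-09). The phyA seedlings rose by 3.79 ± 0.17 in shade (13.8-fold; adjusted p = 2.3e-10) and by 3.77 ± 0.17 in strong shade (adjusted p = 1.98e-10), or 3.76 and 3.96 without the third phyA arrays. From highest to lowest the groups ran phyA shade, phyA strong shade, WT strong shade, WT shade, phyA white light and WT white light, and the only neighbours whose arrays did not overlap were WT shade and phyA white light.

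ALDH6B2, the methylmalonate semialdehyde dehydrogenase of valine breakdown in mitochondria, was the next most responsive. Its log2 intensity was 7.71 and 7.85 in WT white light and 7.68 and 7.66 in phyA white light. WT arrays stood at 9.50, 9.12 and 9.30 in shade and at 9.77, 10.09 and 9.93 in strong shade, so that the 3 WT groups did not overlap. In phyA the shade arrays stood at 9.58, 9.46 and 10.38, and the strong shade arrays at 10.06, 10.37 and 8.999. The third phyA array was the highest of its group in shade and the lowest in strong shade, and the phyA group means were nearly equal at 9.81 ± 0.498 and 9.81 ± 0.72 (SD, n = 3 each). Against white light the gene rose in WT by 1.53 ± 0.315 (2.88-fold; adjusted p = 0.00108) in shade and 2.15 ± 0.315 (4.45-fold; adjusted p = 4.2e-05) in strong shade. The rises in phyA were 2.14 ± 0.315 in both lights (adjusted p = 4.13e-05 and 3.98e-05). Without the third phyA arrays these were 1.85 ± 0.154 in shade and 2.55 ± 0.154 in strong shade.

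The paralogs ALDH10A8 and ALDH10A9 encode betaine aldehyde dehydrogenases, which oxidise aminoaldehydes that arise from polyamines. ALDH10A8 stood at 7.80 and 7.74 in WT white light, at 8.95, 9.07 and 9.07 in WT shade, and at 8.95, 9.12 and 9.07 in WT strong shade. In phyA it stood at 7.78 and 7.83 in white light, at 9.06, 9.37 and 9.23 in shade, and at 9.38, 9.43 and 9.18 in strong shade. All shaded arrays were above all white-light arrays. The rises were 1.26 ± 0.119 and 1.28 ± 0.119 in WT shade and strong shade, and 1.41 ± 0.119 and 1.52 ± 0.119 in phyA, with adjusted p from 4.82e-08 to 5.7e-07. The phyA values were 1.41 and 1.60 without the third phyA arrays. ALDH10A9 stood at 7.47 and 7.32 in WT white light, at 8.35, 8.16 and 8.13 in WT shade, and at 8.29, 8.42 and 8.31 in WT strong shade. The phyA arrays read 7.47 and 7.41 in white light, 8.18, 8.33 and 8.48 in shade, and 8.44, 8.50 and 8.12 in strong shade. Here too white light lay apart from both shades, and the 4 shaded groups overlapped one another. ALDH10A9 rose by 0.82 ± 0.133 and 0.94 ± 0.133 in WT and by 0.89 ± 0.133 and 0.91 ± 0.133 in phyA (adjusted p from 2.95e-05 to 0.000135), the latter being 0.81 and 1.02 without the third phyA arrays. For both paralogs the order of group means had its only gap without overlap between the shaded and the white-light groups.

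ALDH11A3 encodes the cytosolic non-phosphorylating glyceraldehyde-3-phosphate dehydrogenase, which oxidises the sugar phosphate directly to 3-phosphoglycerate and yields NADPH. Its log2 intensity was 9.15 and 9.34 in WT white light, 10.12, 10.10 and 10.05 in WT shade, and 10.26, 10.11 and 10.24 in WT strong shade. The phyA arrays stood at 9.38 and 9.28 in white light, at 9.83, 9.84 and 9.81 in shade, and at 9.76, 9.82 and 9.68 in strong shade. In order of mean, both WT shaded groups came first, both phyA shaded groups next and both white-light groups last, and these 3 tiers did not overlap. The rise was 0.84 ± 0.103 in WT shade (1.79-fold; adjusted p = 8.33e-06) and 0.96 ± 0.103 in WT strong shade (adjusted p = 1.97e-06). In phyA it was 0.49 ± 0.103 in shade (1.41-fold; adjusted p = 0.00103) and 0.42 ± 0.103 in strong shade (adjusted p = 0.00338), or 0.50 and 0.46 without the third phyA arrays.

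ALDH2C4, also known as REF1, oxidises sinapaldehyde and coniferaldehyde to the sinapic and ferulic acids of the phenylpropanoid pathway. Arrays stood at 8.35 and 8.01 in WT white light, at 7.96, 8.41 and 8.45 in WT shade, and at 8.51, 8.48 and 8.41 in WT strong shade. In phyA they stood at 8.29 and 7.92 in white light, at 8.67, 8.79 and 8.95 in shade, and at 8.89, 8.996 and 8.74 in strong shade. The phyA shaded arrays were above every other array, while WT shade overlapped WT white light. The WT differences from white light were 0.09 (95% confidence interval -0.26 to 0.44; adjusted p = 0.739) in shade and 0.28 (-0.07 to 0.63; adjusted p = 0.208) in strong shade. The gene rose in phyA by 0.70 ± 0.165 in shade (adjusted p = 0.00259) and 0.77 ± 0.165 in strong shade (adjusted p = 0.0012), or by 0.63 and 0.84 without the third phyA arrays. The call in phyA shade ended without phyA white 2 (adjusted p = 0.0646).

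ALDH3F1 and ALDH22A1 were lower in shade. ALDH3F1 belongs to the class that acts on medium- and long-chain aldehydes. It stood at 7.75 and 8.06 in WT white light, at 6.66, 6.92 and 6.95 in WT shade, and at 6.55, 6.46 and 6.31 in WT strong shade. The phyA arrays stood at 7.90 and 7.88 in white light, at 6.84, 7.002 and 6.64 in shade, and at 6.88, 6.75 and 7.08 in strong shade. WT strong shade was the lowest group and overlapped no other, and both white-light groups were the highest. ALDH3F1 fell by 1.06 ± 0.147 in WT shade (2.09-fold; adjusted p = 2.95e-05) and by 1.47 ± 0.147 in WT strong shade (2.76-fold; adjusted p = 9.35e-07). It fell by 1.06 ± 0.147 and 0.99 ± 0.147 in phyA (adjusted p = 2.25e-05 and 4.57e-05), where the differences were -0.97 and -1.07 without the third phyA arrays. ALDH22A1, the dimmest of the 8 probe sets, belongs to a plant ALDH class whose substrate is not well established. Its WT arrays stood at 5.74 and 5.65 in white light, at 5.46, 5.45 and 5.48 in shade, and at 5.51, 5.28 and 5.33 in strong shade. Its phyA arrays stood at 5.45 and 5.61 in white light, at 5.44, 5.35 and 5.35 in shade, and at 5.33, 5.42 and 5.45 in strong shade. Neighbours in its order of means overlapped except the 2 white-light groups at the top. It fell by 0.32 ± 0.105 in WT strong shade (adjusted p = 0.0216), a call that ended without WT white 1, WT white 2, WT strong shade 2 or WT strong shade 3 (adjusted p up to 0.137). It also ended with each array centred on its median (adjusted p = 0.168), with trended and robust variances and with only the groups compared in the model. The other 3 differences from white light were -0.23 in WT shade (adjusted p = 0.106), -0.15 in phyA shade (adjusted p = 0.3) and -0.13 in phyA strong shade (adjusted p = 0.368). The phyA values were -0.13 and -0.15 without the third phyA arrays.

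**Figure D2:**
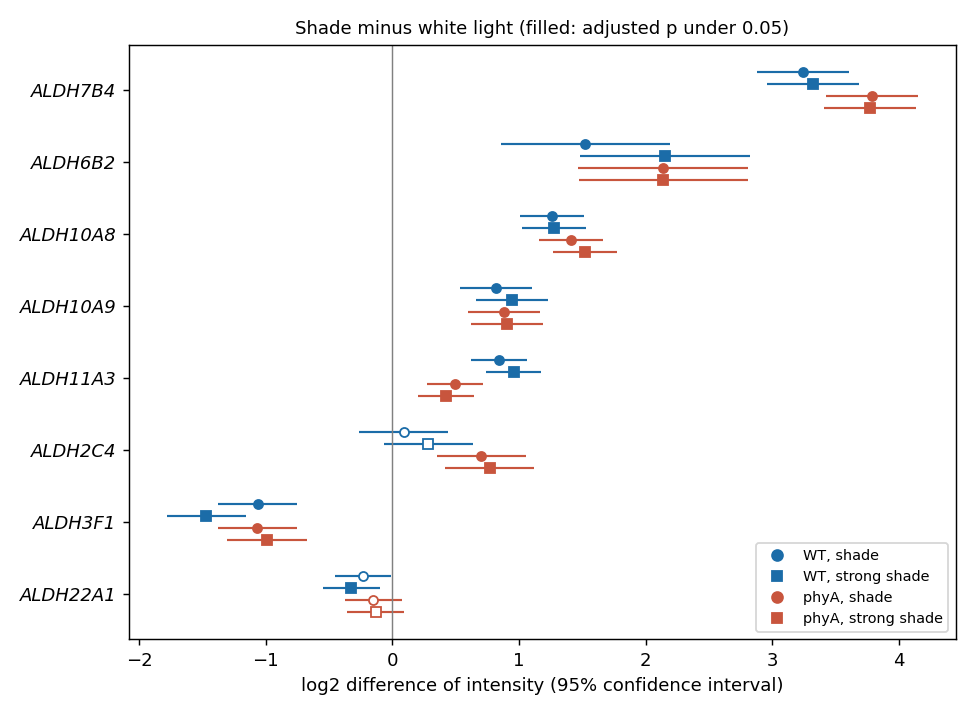
Log2 difference of intensity between each shade and white light (horizontal axis, with 95% confidence intervals) for each gene (vertical axis), WT in blue and phyA in red. Filled symbols passed limma's adjusted p of 0.05; ALDH7B4 lies furthest right at 3.24 to 3.79 and ALDH3F1 furthest left at -0.99 to -1.47.

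Counted over the family, 5 of 8 genes rose and 1 fell in WT shade against white light, where 36.4% of all probe sets were called (16.9% higher and 19.6% lower). In WT strong shade 5 rose and 2 fell, against 39.2% of all probe sets (18% higher and 21.2% lower). In phyA 6 rose and 1 fell in shade and again in strong shade, with 40.8% and 42% of all probe sets called (20.7% and 21.7% higher, 20.1% and 20.3% lower). These shares include dim probe sets, while every member lay above the array median on all 16 arrays. Without the dimmest 40%, 13648 probe sets were left. Of these, 3880 were called higher and 3834 lower in WT shade, and 4043 and 4212 in WT strong shade. In phyA 4560 were called higher and 3997 lower in shade, and 4674 and 4047 in strong shade. The family's median log2 difference was 0.83 and 0.95 in WT and 0.79 and 0.84 in phyA, while the medians over all probe sets lay between -0.02 and 0.04. With each array centred on its median, the medians of all probe sets became 0.05 and 0.13 in WT and 0.13 and 0.14 in phyA. ALDH7B4, ALDH6B2, ALDH10A8, ALDH10A9, ALDH11A3 and ALDH3F1 kept direction and call in all 4 comparisons under that centring. The WT comparisons share their white-light arrays with each other, as do the phyA comparisons. The counts in shade without the third phyA arrays were again 5 and 1 in WT and 6 and 1 in phyA, beside 40.2% and 40.3% of all probe sets called. In strong shade they were again 5 and 2 and 6 and 1, beside 42.5% and 45%.

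Strong shade was then set against shade, where the 2 LED lights differ in red and far-red light. No family member was called in WT by limma (2 of 8 at unadjusted p under 0.05; 0.659% of all probe sets called, 0.268% higher and 0.391% lower). The largest differences there were those of ALDH6B2, 0.63 (95% confidence interval 0.03 to 1.23; adjusted p = 0.336), and ALDH3F1, -0.41 (-0.69 to -0.12; adjusted p = 0.173), both without overlap of arrays. ALDH7B4 differed by 0.08, with an interval of -0.24 to 0.40, and ALDH10A8 by 0.02. Without the third phyA arrays, which share the model's estimate of spread, ALDH6B2 passed in WT at adjusted p = 0.00738, with 6.25% of all probe sets called. In phyA no family member was called either (0 of 8 at unadjusted p under 0.05; 0% of all probe sets called), and ALDH6B2 differed by less than 0.01, with an interval of -0.60 to 0.60. With the third phyA arrays left out, ALDH6B2 rose by 0.69 ± 0.154 in phyA from shade to strong shade (adjusted p = 0.02), when 3.84% of all probe sets were called. The other 7 members again missed the threshold (adjusted p from 0.432 to 0.96). The array left out in each shade is the one that ran against the rest of its group for ALDH6B2, and the choice was made with that known. The near-equal phyA means of ALDH6B2 thus depend on these 2 arrays, and an exchange of their labels was not tested.

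**Figure D3:**
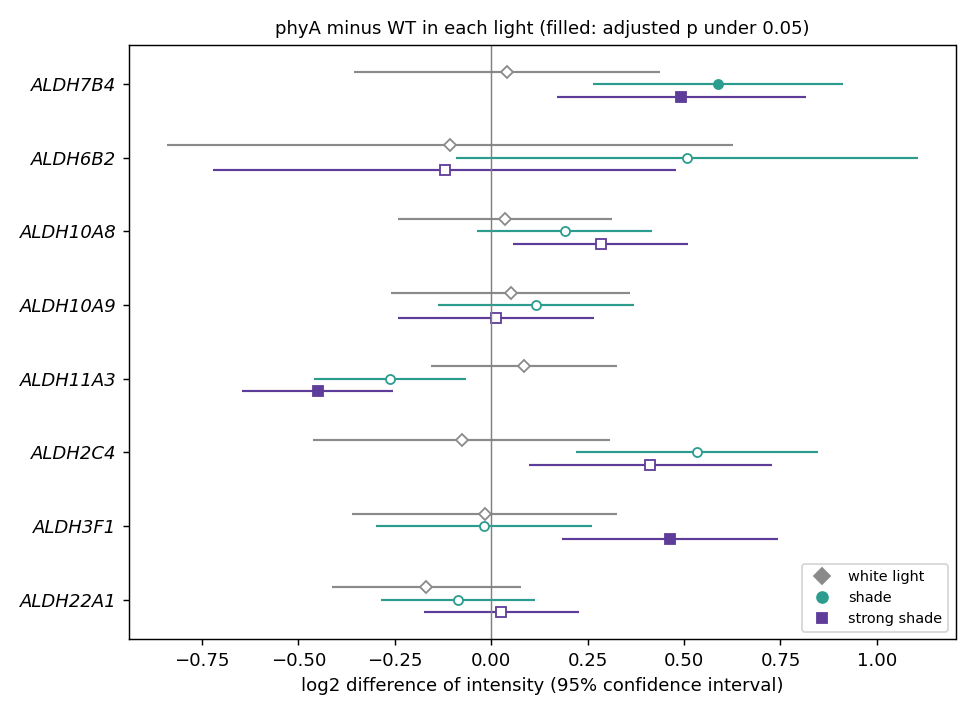
Log2 difference of intensity between phyA and WT (horizontal axis, with 95% confidence intervals) in white light, shade and strong shade for each gene (vertical axis). Filled symbols passed limma's adjusted p of 0.05, which no gene did in white light; ALDH11A3 lies left of 0 in both shades and ALDH7B4 right of 0.

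Genotypes were compared within each light. In white light no family member differed between phyA and WT by limma's test (0 of 8 at unadjusted p under 0.05; 0.154% of all probe sets called, 0.0747% higher and 0.0791% lower), and differences lay between -0.17 for ALDH22A1 and 0.09 for ALDH11A3. In shade ALDH7B4 alone was called, higher in phyA by 0.59 ± 0.152 (1.5-fold; adjusted p = 0.0353), with 3 phyA arrays above 3 WT arrays. That 1 call of 8 stands beside 4.77% of all probe sets (1.19% higher and 3.59% lower in phyA), a share that includes dim probe sets. Of the 13648 probe sets left without the dimmest 40%, 308 were called higher and 866 lower in phyA. The ALDH7B4 call ended without WT shade 2 or 3, or without phyA shade 1, 2 or 3 (adjusted p up to 0.145), after cyclic loess and with the replicate block (adjusted p = 0.0509). Without the third phyA arrays it passed at adjusted p = 0.0222, when 5.51% of all probe sets were called. ALDH2C4 was higher in phyA by 0.53 ± 0.148 without overlap of arrays and missed the threshold (adjusted p = 0.0516). It passed with each array centred on its median, without the dimmest 40% of probe sets and with trended and robust variances (adjusted p from 0.0232 to 0.0399), and was at 0.46 without the third phyA arrays (adjusted p = 0.128). ALDH11A3 stood at -0.26 (adjusted p = 0.139).

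In strong shade 3 of 8 genes were called between genotypes, against 11.7% of all probe sets (5.43% higher and 6.26% lower in phyA). This share includes dim probe sets, which the members are not. Of the 13648 probe sets left without the dimmest 40%, 1444 were called higher and 1469 lower in phyA. ALDH11A3 was lower in phyA by -0.45 ± 0.0924 (1.37-fold; adjusted p = 0.0038), with all 3 phyA arrays below all 3 WT arrays. Its call held whichever array of the 2 groups was left out (adjusted p up to 0.02) and without the third phyA arrays (adjusted p = 0.0177; 12.8% of all probe sets called). ALDH3F1 was higher in phyA by 0.46 ± 0.132 (adjusted p = 0.031), again without overlap. It lost its call without WT strong shade 2 or 3 or phyA strong shade 1 or 3 (adjusted p up to 0.135), without the third phyA arrays (0.38; adjusted p = 0.081), after cyclic loess and with only the groups compared. ALDH7B4 was higher in phyA by 0.49 ± 0.152 (adjusted p = 0.0471), and the third phyA array overlapped WT. This call ended without any single array of the 2 groups other than phyA strong shade 3 (adjusted p up to 0.175). It also ended with median centring, cyclic loess, gene means, only the groups compared (adjusted p from 0.0506 to 0.149) and the replicate block (adjusted p = 0.0616). Without the third phyA arrays ALDH7B4 stood at 0.68 ± 0.134 (adjusted p = 0.0028). ALDH2C4 and ALDH10A8 were at 0.41 and 0.28, both without overlap of arrays and short of the threshold (adjusted p = 0.0889 and 0.106; 0.0632 and 0.057 without the third phyA arrays). ALDH6B2, ALDH10A9 and ALDH22A1 stood at -0.12, 0.01 and 0.03, of which ALDH6B2 was at 0.29 without the third phyA arrays (adjusted p = 0.224).

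Whether the response to light itself differed between genotypes was tested as a difference of differences. No family member was called by limma for shade (3 of 8 at unadjusted p under 0.05; 1.05% of all probe sets called, 0.167% higher and 0.884% lower). No member was called for strong shade (2 of 8 at unadjusted p under 0.05; 3.66% of all probe sets called, 1.12% higher and 2.55% lower), nor for the step from shade to strong shade (1 of 8 at unadjusted p under 0.05; 0% of all probe sets called). The nearest to the threshold was ALDH11A3, whose rise in strong shade was smaller in phyA by -0.54 ± 0.146 (95% confidence interval -0.85 to -0.23; adjusted p = 0.0564). It passed after cyclic loess, without the dimmest 40% of probe sets, with trended and robust variances and with array weights. Over the 9 alternatives other than leaving out single arrays, its adjusted p ran from 0.0181 to 0.135. Without the third phyA arrays no difference of responses was called in the family either, where 1.61%, 5.43% and 0.0659% of all probe sets were called for shade, strong shade and the step. For ALDH2C4 the shade response in phyA minus that in WT was 0.61 ± 0.234 (adjusted p = 0.337), so its call in phyA and not in WT does not show that the genotypes differ. The corresponding value for ALDH7B4 was 0.55 ± 0.24 (adjusted p = 0.423).

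Related pathways were followed through lists matched by locus tag, of which only genes with a probe set naming that gene alone were read. The other listed genes were not analysed here. ALDH6B2 acts in branched-chain amino acid breakdown, for which 9 of 17 listed genes were read. In WT shade 7 rose and 1 fell, and in each of WT strong shade, phyA shade and phyA strong shade 8 rose and 1 fell. Over all probe sets 36.4%, 39.2%, 40.8% and 42% were called in these 4 comparisons. These shares again include the dim probe sets. The list's median log2 difference was 1.37, 1.61, 1.91 and 2.04 in that order. Without the third phyA arrays 8 rose and 1 fell in all 4, beside 40.2%, 42.5%, 40.3% and 45% of all probe sets called. The phyA medians were then 1.68 and 2.27. Between genotypes none of the 9 was called in shade. In strong shade only AT4G20930 was called, higher in phyA by 0.81 ± 0.225 (adjusted p = 0.0265). Over all probe sets 4.77% were called in shade and 11.7% in strong shade. With the third phyA arrays left out, 1 of the 9 was called in shade and 3 in strong shade, all higher in phyA. Over all probe sets 5.51% and 12.8% were then called. MCCA, a subunit of the methylcrotonyl-CoA carboxylase of leucine breakdown, was at 4.78 ± 0.132 in WT white light (n = 2) and 9.47 ± 0.328 in WT shade (n = 3). IVD, the isovaleryl-CoA dehydrogenase of the same route, rose by 4.42 ± 0.234 in WT shade (adjusted p = 1.6e-09) and by 4.78 ± 0.234 in phyA shade (adjusted p = 4.6e-10; 4.60 without the third phyA arrays). MCCB, the other subunit of the carboxylase, rose by 2.95 ± 0.333 in WT shade and 3.68 ± 0.333 in phyA shade (3.43 without them). ETFQO, which passes electrons from these dehydrogenases to the respiratory chain, rose by 2.21 in WT shade and 2.97 in WT strong shade. The 1 gene that fell was AT5G09300, from 4.30 to 3.11 in WT shade; its 12 shaded arrays lay below the array medians, so the size of its fall is uncertain. D2HGDH lost its call in both WT comparisons without WT white 2 (adjusted p = 0.131 and 0.0889). AT2G26800, which was not called in WT shade (adjusted p = 0.0559), lost its calls in phyA shade and strong shade without phyA white 2 (adjusted p = 0.142 and 0.221) and after cyclic loess, and in strong shade also without phyA white 1 or phyA strong shade 1 or 2 and with only the groups compared. In the third phyA arrays MCCA stood at 10.57 in shade and 9.07 in strong shade, against 9.78 and 9.67, and 10.34 and 10.53, in the other arrays, the pattern seen for ALDH6B2.

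**Figure D4:**
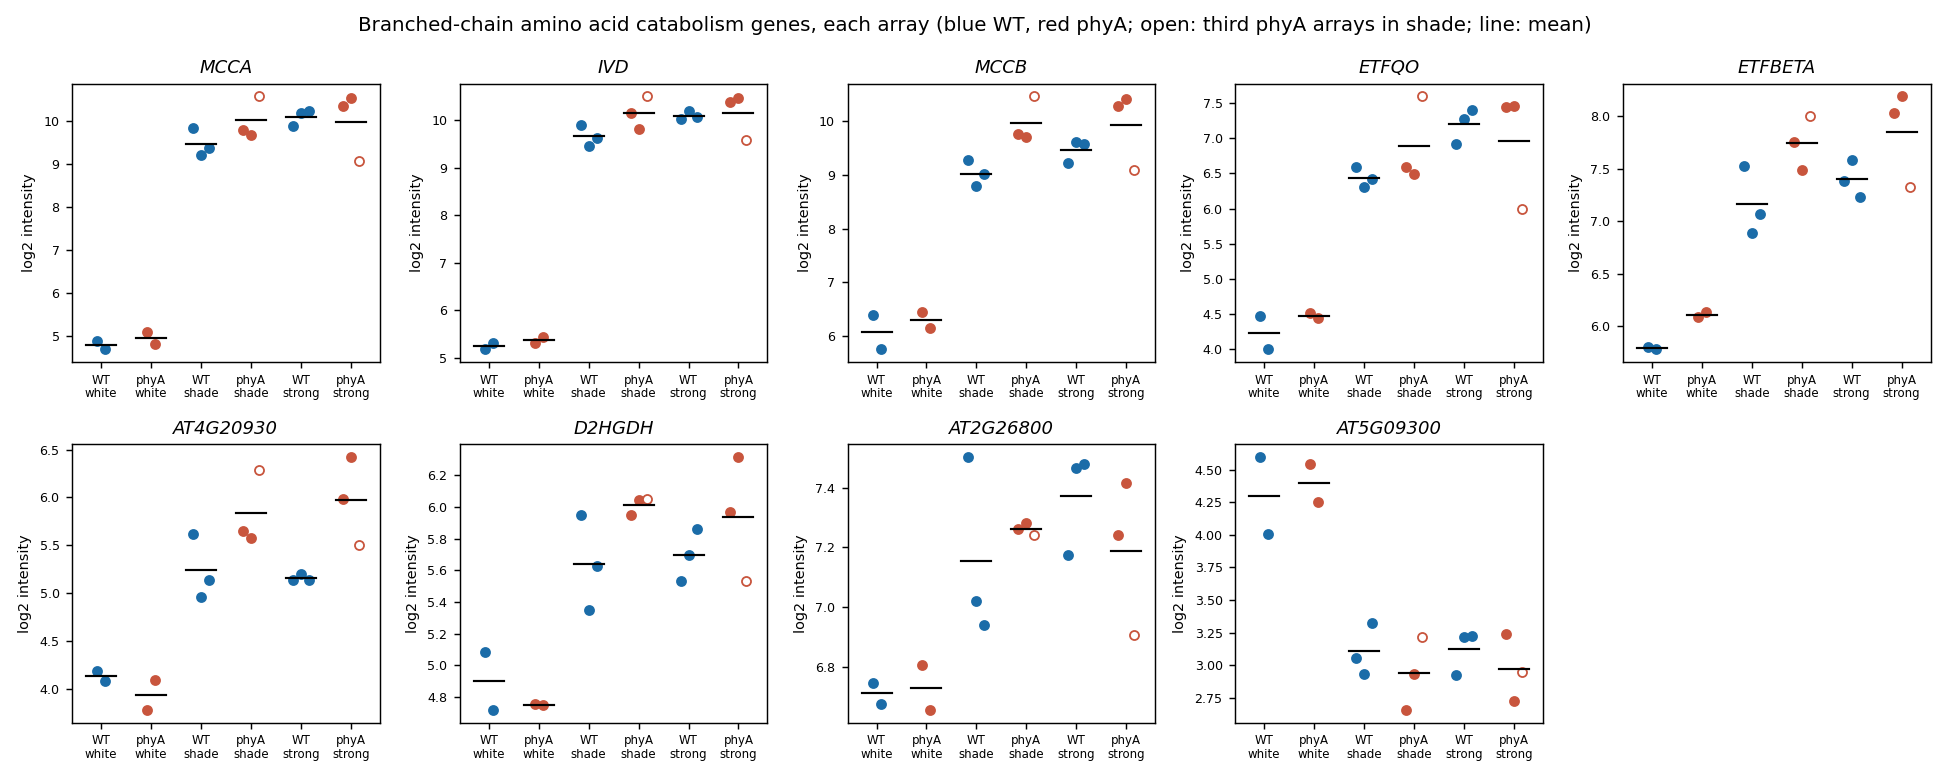
Log2 intensity of the 9 genes read of branched-chain amino acid breakdown (vertical axes, scaled for each gene) in the 6 groups (horizontal axes; strong: strong shade). Points are arrays and lines are group means; MCCA lay between 4.68 and 5.09 in white light and at 9.07 or above in shade, while AT5G09300 was lower in shade.

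The other lists had few genes read. Of 6 proline metabolism genes 2 were read, and DELTA-OAT, the ornithine aminotransferase, rose by 1.96 ± 0.143 in WT shade, 1.70 ± 0.143 in WT strong shade and 2.66 and 2.57 in phyA (2.66 and 2.605 without the third phyA arrays). AT5G38710 lay below the array median on all 16 arrays, and no difference is given for it. DELTA-OAT was higher in phyA than in WT by 0.64 ± 0.128 in shade (adjusted p = 0.00655) and by 0.80 ± 0.128 in strong shade (adjusted p = 0.000474), or 0.64 and 0.84 without the third phyA arrays, the former call ending with only the groups compared in the model (adjusted p = 0.0779). Its rise in strong shade was larger in phyA by 0.86 ± 0.203 (adjusted p = 0.0252; 0.0244 without the third phyA arrays), a call that ended without any 1 of the 4 white-light arrays, WT strong shade 1 or 3, or phyA strong shade 1 (adjusted p up to 0.102). Of 6 genes leading from pyruvate to acetate and ethanol 2 were read. PDC2, a pyruvate decarboxylase that makes acetaldehyde, rose by 0.83 ± 0.102 in WT shade and 0.68 ± 0.102 in WT strong shade, and ACS, the acetyl-CoA synthetase, fell by 0.48 and 0.56. In phyA PDC2 stood at 0.33 in both shades (adjusted p = 0.0161 and 0.0156), calls that ended without phyA white 1 or 2 (adjusted p up to 0.0956), in shade without phyA shade 2 and in strong shade without the third phyA arrays (adjusted p = 0.0512). ACS stood at -0.26 and -0.17 in phyA (adjusted p = 0.113 and 0.298). PDC2 was lower in phyA than in WT at -0.52 ± 0.0912 in shade (adjusted p = 0.00213; -0.50 without the third phyA arrays). In strong shade this PDC2 difference was -0.37 ± 0.0912 (adjusted p = 0.0134). ACS was higher in phyA by 0.37 in strong shade (adjusted p = 0.0397), a call that ended without any 1 of the arrays compared (adjusted p up to 0.138), and without the third phyA arrays (adjusted p = 0.0703). Of 5 genes listed as reductases of aldehydes or alkenals 3 were read. AOR, an alkenal reductase of chloroplasts, was lower than in white light at -0.98 ± 0.316 in WT shade and -2.20 ± 0.316 in phyA shade (-1.81 without the third phyA arrays). In WT shade its call ended without WT white 1, WT white 2 or WT shade 3 (adjusted p up to 0.104). AOR was lower in phyA than in WT at -1.24 ± 0.282 in shade (adjusted p = 0.0159) and at -1.49 ± 0.282 in strong shade (adjusted p = 0.002; -1.78 without the third phyA arrays). AER, another alkenal reductase, rose by 0.96 ± 0.272 in WT shade, a call that ended without WT white 1 or WT shade 1 (adjusted p up to 0.177), and by 1.47 ± 0.272 in phyA shade (1.19 without the third phyA arrays). AT1G54870 lay below the array median on all 16 arrays, and no difference is given for it. CuAO1, the 1 amine oxidase read of 7, rose by 0.99 ± 0.21 in WT shade, or adjusted p = 0.0512 without WT white 1. It lay below the array median on 2 arrays, both from white light, and its WT white-light arrays read 3.52 and 4.43. The size of its rise is thus uncertain. HCT, the 1 phenylpropanoid gene read of 12, fell by 0.83 ± 0.22. GAPC2, the 1 phosphorylating glyceraldehyde phosphate dehydrogenase read of 5, fell by 0.38 ± 0.109 in WT shade, a call that ended without WT white 1 (adjusted p = 0.118). In phyA it stood at -0.20 in shade (adjusted p = 0.166) and -0.28 in strong shade (adjusted p = 0.0539; 0.0298 without the third phyA arrays). The 3 listed GABA shunt genes were not analysed here.

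Among 5768 genes outside the family with a mean log2 intensity of at least 4, those most like each member were ranked by Pearson's r over the 16 arrays. The arrays fall into 4 from white light and 12 from shade, so r over the 12 shaded arrays is given beside it, and neither is tested. For ALDH7B4 these were FDH, the formate dehydrogenase gene, at r = 0.997 (0.977 over the shaded arrays), and AT3G62650 at 0.996 (0.932). ALDH6B2 was closest to AT1G18270 at 0.996 (0.99) and AT1G19540 at 0.99 (0.966). GRXC1, a glutaredoxin gene, and CYN, the cyanase gene, were closest to ALDH10A8 at 0.991 (0.896) and 0.99 (0.835), and AT1G11480 and AT4G16330 to ALDH10A9 at 0.993 (0.941) and 0.991 (0.943). For ALDH11A3 they were AT1G55000 and AT1G68440, both at 0.972 (0.899 and 0.889), and for ALDH3F1 AT3G07110 and AT1G29250, both at 0.985 (0.906 and 0.923). ALDH2C4 was nearest to AT5G63010 at 0.928 (0.908) and AT2G19970 at 0.923 (0.954), and ALDH22A1 to AT1G04000 at 0.905 (0.656) and AT1G71070 at 0.879 (0.558). Within the family, r over the 12 shaded arrays was highest for ALDH6B2 and ALDH10A9 (0.903) and for ALDH10A8 and ALDH2C4 (0.827). It was lowest for ALDH11A3 and ALDH2C4 (-0.746).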

How the data were processed

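RNA from 16 whole-seedling samples was measured on Affymetrix arrays. Per the submitters' processing notes the deposited intensity values were made with RMA in the affy package; no version or genome build was found in the labels or files. The deposited intensity lay between 2.33 and 6170 and was read as linear, and its log2 was taken with no pseudocount, further scaling or filter. The number of arrays limits the precision. Probe sets were named by the supplied platform annotation and a RefSeq gene table of assembly TAIR10.1, used for names only: of 22746 probe sets 13513 had 1 gene, 503 several and 8730 none listed. Limma 3.58.1 in R 4.3.3 was fitted to all 16 arrays with 1 mean for each of 6 groups (10 residual degrees of freedom) and moderated with eBayes, for 12 comparisons; it was tested on simulated data. Members and lists were chosen with earlier results of these data known. Named genes were all members, up to 3 called genes per list and comparison with the largest changes, and the 2 most similar genes of each member. ETFQO, D2HGDH, AT2G26800, AT5G09300, AT5G38710, RCA, EXPA7, EXPA18 and PYK10 fall outside this rule, being picked once their values were known. The model did not pair arrays by replicate number. The check on these numbers cannot exclude pairing, since deviations within groups of 2 or 3 arrays depend on one another. Promoter motifs named in the plan were not searched, since no sequences were used here.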

Additional observations from a re-analysis of the deposited data

How the results depend on the processing

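The 9 alternatives were array weights, the replicate block, median centring, only the groups compared, a filter on the dimmest 40% of probe sets, cyclic loess, trended (and robust) variances, the mean of a gene's probe sets, and dropping the third phyA arrays; single arrays were also left out in turn. Among members, 837 of the 864 values under these settings kept their side of the threshold, 14 gained a call and 13 lost it. Without single arrays 621 kept it and 19 lost a call. Some of the 864 differences could not move. Each member was read by 1 probe set, so gene means could change its adjusted p but not its difference. Dropping the third phyA arrays likewise could not change a difference within WT. No called value changed sign. In phyA against WT in shade the count of 1 became 2 with median centring, without dim probe sets and with trended variances, and 0 after cyclic loess and with the replicate block (range 0 to 1 without single arrays). Calls over all probe sets were 270 higher and 816 lower in the main model. They were 392 and 695, 308 and 866 (of 13648), and 299 and 847 under the first 3 settings. Under the last 2 they were 255 and 841, and 240 and 749. In strong shade the count of 3 became 1 after cyclic loess and with only the groups compared, and 5 with array weights (1 to 2 without single arrays). It became 2 with the block, with median centring, with the mean of a gene's probe sets and without the third arrays. Calls over all probe sets in this comparison were 1235 higher and 1424 lower in the main model. They were 1906 and 1738 with array weights, 1028 and 1537 after cyclic loess, and 724 and 1108 with only the groups compared. The count of 7 in WT strong shade against white light became 6 with median centring, with trended variances and with only the groups compared. Calls over all probe sets there were 4097 higher and 4825 lower in the main model. Under these 3 settings they were 5258 and 3919, 4029 and 4766, and 4313 and 5058. Strong shade against shade in WT went from 0 to 2 with array weights and to 1 with only the groups compared and without the third arrays, and in phyA from 0 to 1 without the third arrays. Calls over all probe sets rose too. In WT they went from 61 higher and 89 lower to 471 and 834 with array weights. They went to 306 and 542 with only the groups compared and to 523 and 898 without the third arrays. In phyA they went from 0 to 310 higher and 564 lower. The strong shade response difference went from 0 to 1 after cyclic loess, without dim probe sets, with trended variances and with array weights. Calls over all probe sets there were 254 higher and 579 lower in the main model. Under these settings they were 199 and 676, 299 and 618 (of 13648), 277 and 608, and 562 and 799. The cause of these changes in count was not tested. Leaving out single arrays gave 6 to 6 and 6 to 7 calls in WT and 6 to 7 and 7 to 7 in phyA for the 2 shades against white light, and 0 in the remaining comparisons. The replicate block changed the call of no member but ALDH7B4; deviations of same-numbered arrays correlated at -0.579 to 0.318, 7 of 36 pairs exceeded 0.1, and 4 of 16 arrays correlated best with their own number. Among called probe sets, median centring moved the share called higher from 45.9% to 57.3% in WT strong shade against white light. It moved this share from 40.7% to 51.2% in WT strong shade against shade, and from 24.9% to 36.1% in phyA against WT in shade. Cyclic loess moved it from 48.6% to 58.8% in phyA against WT in white light. That last shift rests on few calls, 17 higher and 18 lower becoming 20 and 14. ALDH22A1 is the member with the lowest signal, and 2 white-light arrays per genotype limit every difference from white light.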
